A study of Mus musculus with 11 samples.

Results

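Deep bins of the mouse genome are bins of about 50 kb that collected far more reads than a typical autosomal bin. Depth is the mean number of reads over each base of a bin, and relative depth is that value over the median autosomal bin of the same library, so that 1 is a typical autosomal bin. A bin was a deep bin when its relative depth averaged 1.5 or more over the 3 long-term Ctrl libraries, so that the height of these bins in those libraries is how they were chosen and not a result. Chromosomes 1, 6 and 8 and 3 stretches on chromosomes 4, 5 and 14 were left out. The rule found 109 deep bins among 38477 autosomal bins outside these regions, of 47924 autosomal bins and 52958 bins in all. Members within 100 kb of each other formed 77 stretches, of which 60 were a single bin and the longest held 6. A relative depth of 2 was reached by 47 of them, 5 by 11 and 10 by 5. Just inside the threshold lay bins at chr4:122023192-122072451 (1.5003), chr7:11983313-12033243 (1.5095) and chr4:3149965-3199947 (1.5164). Just outside lay chr19:45626395-45676411 (1.4964), chr7:15378622-15428552 (1.4989) and chr11:88932194-88982194 (1.4997).

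The 11 libraries came from bulk genomic DNA of mouse embryonic stem cells (mESC). Cells were kept in 2i medium with feeders, and live cells with the stem cell marker CD326 and without the feeder marker Thy1.2 were sorted. By the labels, Ctrl and Tet iTKO cells were also selected for the GFP reporter, which the pre-treatment cells had not activated, and Dnmt TKO cells were not. Ctrl cells carry Cre-ERT2, a tamoxifen-activated recombinase driven by the human ubiquitin C promoter, together with the Rosa26-LSL-H2b-Egfp reporter. Tet iTKO cells carry the same alleles and floxed Tet1, Tet2 and Tet3, which tamoxifen deletes. Each of these genotypes was sequenced before treatment (1 library), after acute treatment with 1 µM tamoxifen for 2.5 days and 4 further days of culture (1 library), and as long-term monoclonal populations kept for 30 days (3 libraries). In the pre-treatment Tet iTKO cells the Tet genes were therefore not yet deleted. Dnmt TKO cells, a germline knock-out of Dnmt1, Dnmt3a and Dnmt3b without inducible Cre, gave 1 library and have no untreated parent here. Pre-treatment and acute libraries are called early below.

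An assembly collapses a repeat when it shows fewer copies than the genome holds, and reads from all the copies then pile up on those that are shown. Major satellite, the AT-rich tandem repeat of mouse pericentromeric heterochromatin, the ribosomal RNA gene arrays, telomere repeats and recently duplicated gene families are known for this. DNMT enzymes methylate cytosine and TET enzymes oxidise the methyl group, and satellite and telomere-adjacent DNA are among the methylated repeats of mouse cells.

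The sequences below were read from the assembly (mm10, also called GRCm38) and show which kinds of repeat lay inside deep bins. The first is 1 unit of 234 bases of the satellite in the deepest bin, at chr9:3027538-3027771 on the plus strand in an exon of the gene model Gm10717, with CpG dinucleotides in capitals.
Satellite unit, chr9: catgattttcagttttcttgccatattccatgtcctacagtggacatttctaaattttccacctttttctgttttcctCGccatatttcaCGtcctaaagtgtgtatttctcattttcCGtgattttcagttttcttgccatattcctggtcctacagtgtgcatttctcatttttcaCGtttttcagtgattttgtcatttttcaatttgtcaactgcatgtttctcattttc
The best match to that unit in a chromosome 2 bin lies at chr2:98667053-98667286 on the minus strand, in an exon of the gene model Gm10800. It differed at 13 bases, shown in capitals, and was 94.4% identical.
Satellite match, chr2: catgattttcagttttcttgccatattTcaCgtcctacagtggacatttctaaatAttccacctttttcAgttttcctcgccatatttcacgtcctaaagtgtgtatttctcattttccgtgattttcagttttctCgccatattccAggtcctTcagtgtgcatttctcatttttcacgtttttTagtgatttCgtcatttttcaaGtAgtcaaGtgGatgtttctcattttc
The ribosomal deep bin was recognised by Rn18s-rs5, an 18S-related sequence at chr17:39846354-39848202. Its first 120 bases (plus strand, chr17:39846354-39846473) are given with CpG in capitals.
Rn18s-rs5: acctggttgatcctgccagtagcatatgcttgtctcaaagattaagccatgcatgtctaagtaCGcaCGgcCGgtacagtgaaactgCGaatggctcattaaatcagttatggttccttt
Other deep bins held short tandem arrays. Their units are shown for the bins that overlap Apba2 (46 bases, chr7:64469926-64469971, outside annotated genes), Rab44 (23 bases, chr17:29101921-29101943, outside annotated genes) and Ide (29 bases, chr19:37298769-37298797, in an intron), all on the plus strand.
Apba2 bin unit: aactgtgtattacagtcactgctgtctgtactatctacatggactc
Rab44 bin unit: gagttgtagaactccatcactga
Ide bin unit: cagtcatgtacacaggtgtatttaaaaac
Exact copies of these units numbered 156 in the Apba2 bin, 118 on the plus and 27 on the minus strand in the Rab44 bin, and 87 in the Ide bin.

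Mapped sequence came to 554.7 to 812.1 megabases per library, and the typical autosomal bin had a depth of 0.2151 to 0.3154, or about 215 to 315 reads. Median relative depth on the Y chromosome was 0.0269 to 0.0381 in the 4 early libraries and 0.4575 to 0.558 in the 7 long-term ones, while the X chromosome lay at 0.56 to 0.592 in all 11. Stage therefore cannot be told apart from a difference in the cells that were sequenced, and this applies to every early against long-term value below. Among long-term libraries, Y depth was 0.463 to 0.470 in Ctrl and 0.549 to 0.558 in Tet iTKO. By the study's methods Ctrl and Tet iTKO mESC were derived separately, so genotype cannot be told apart from the cell line either. Replicates are the long-term monoclonal populations, and a group of 1 library carries no replicate error. A bin is wider than a floxed exon, so the deletion of the Tet genes was not checked here.

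The label of collapsed repeats was set against sequence features that the rule did not use. Repeats marked in the assembly covered a median of 43.29% of a deep bin and 31.16% of the 38368 other bins. Sequences of 31 bases that occur more than once in the assembly made up a median of 43.21% of a deep bin and 10.53% of other bins. Median GC content was 41.47% in both. Satellite matches covering at least 200 bases in all occurred in 8 deep bins (7.339%) and in 2 other bins (0.00521%). Telomere-repeat runs, counted as 4 or more copies of TTAGGG on either strand and covering at least 60 bases in all, occurred in 15 deep bins (13.8%) and 82 other bins (0.214%). At least 50% repeated sequence was found in 42 deep bins (38.5%) and 1453 other bins (3.79%). By the first of these features that applied, the deep bins fell into 8 satellite bins, 1 ribosomal DNA (rDNA) bin, 15 telomere-repeat bins, 36 bins duplicated in the assembly and 49 bins that are mostly unique there. The data give read depth alone, so how many copies the genome holds in the last class was not measured. A protein-coding gene overlapped 61 deep bins, and 8 held no annotated gene.

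Deep bins took about 1 in 100 of the autosomal bases of every library. Their share was 0.931% in pre-treatment Ctrl, 1.000% in acute Ctrl and 0.926%, 1.081% and 1.011% in long-term Ctrl. It was 1.007% in pre-treatment Tet iTKO, 1.035% in acute Tet iTKO and 1.010%, 1.022% and 1.031% in the long-term populations of that genotype, with 0.967% in Dnmt TKO. The long-term means of 1.006% ± 0.077 (SD, n = 3) in Ctrl and 1.021% ± 0.0105 (SD, n = 3) in Tet iTKO overlapped in their libraries. The share was lowest in the deepest library, long-term Ctrl 1 (median depth 0.3154), and highest in the shallowest, long-term Ctrl 2 (0.2151). Without the 5 deepest bins the long-term mean was 0.505% ± 0.013 (SD, n = 3) in Ctrl. In Tet iTKO it was then 0.51% ± 0.0022 (SD, n = 3), and the range over all libraries 0.461% to 0.518%. The part of library depth in the spread of the share was not tested.

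**Figure D1:**
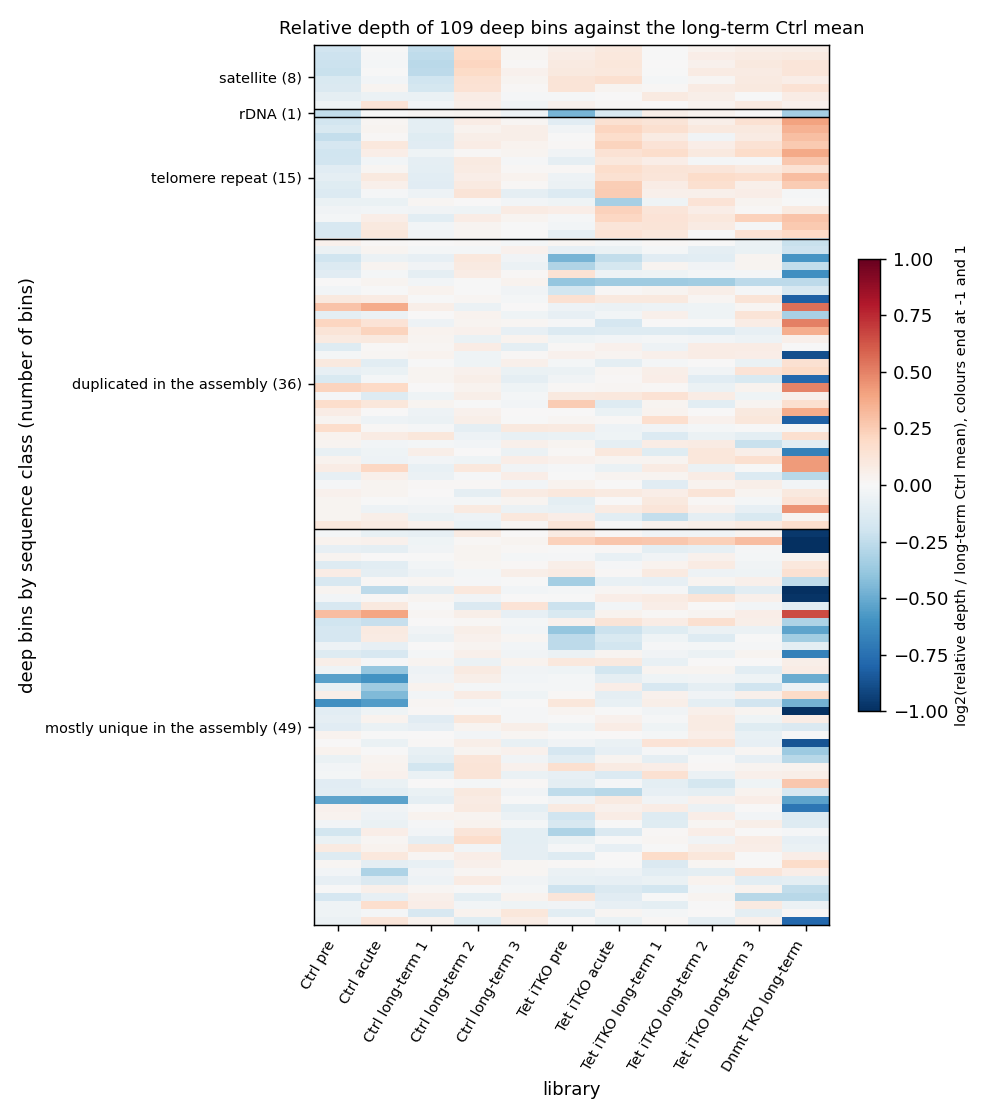
Rows are the 109 deep bins, ordered by sequence class and then by depth, columns are the 11 libraries, and colour gives log2 of relative depth over the long-term Ctrl mean, ending at -1 and 1. The satellite rows shift together from library to library, and the darkest cells lie in the Dnmt TKO column, where ratios to the 6 other long-term libraries ran from 0.143 to 1.551.

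The 8 satellite bins ranged from 1.87 to 175.91 in long-term Ctrl and included the 2 deepest of all deep bins. The bin at chr9:3000001-3050117, which holds 8 of the 10 satellite gene models considered, had a relative depth of 154 in pre-treatment Ctrl, 175 in acute Ctrl and 149, 201 and 178 in long-term Ctrl. In Tet iTKO it had 183 before treatment, 188 after acute treatment and 175, 181 and 183 in the long-term libraries, and in Dnmt TKO 184. The lowest and the highest of the 11 values were both long-term Ctrl libraries, and the Tet iTKO and Dnmt TKO values lay between them. Across the 10 Ctrl and Tet iTKO libraries the deposited depth of this bin was nearly flat, at 42.7 to 47.0, a 1.103-fold range where the library medians ranged 1.47-fold. Its relative depth was accordingly lowest in the deepest library and highest in the shallowest.

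The chromosome 14 satellite bin (chr14:19369644-19419704) ran from 19.5 to 26.8, both ends again in long-term Ctrl. The chromosome 2 bin with Gm10800 and Gm10801 (chr2:98663391-98713381) ran from 10.001 to 13.95, and its neighbour at chr2:98613400-98663390 averaged 6.06 in long-term Ctrl. The satellite bin that holds most of Rpusd4, a mitochondrial RNA-modifying enzyme (chr9:35268102-35318110), ran from 3.20 to 4.11. Deposited depth ranged no more than 1.2-fold over 10 libraries in 6 deep bins, all of them satellite bins. The other 2 satellite bins, both on chromosome 12 and one inside Mdga2, a neuronal adhesion gene, averaged 1.98 and 1.87 in long-term Ctrl. How the flat deposited depth arose was not tested, and differences in relative depth of these 6 bins are therefore given with the library medians beside them.

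**Figure D2:**
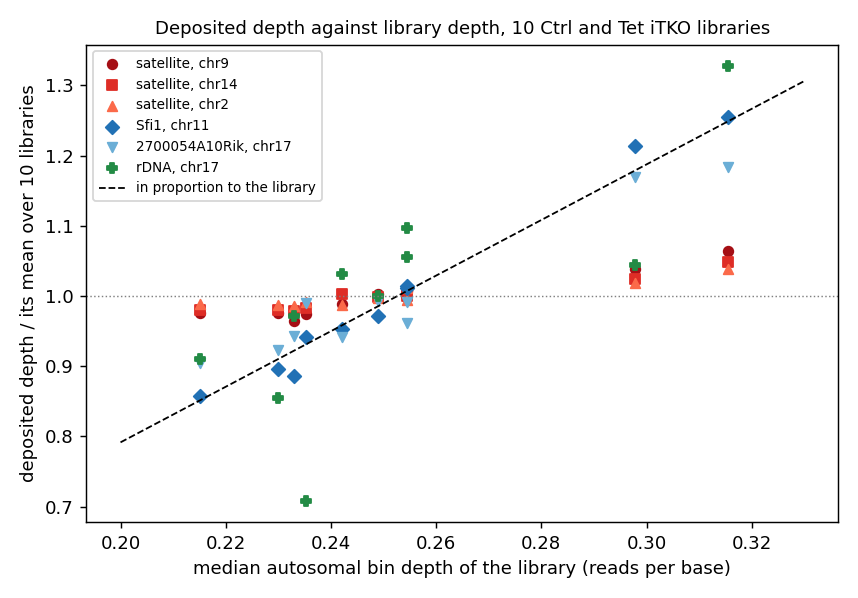
Each point is 1 of the 10 Ctrl and Tet iTKO libraries for 1 of 6 deep bins, with the median autosomal depth of the library on the x axis and the deposited depth of the bin over its own mean on the y axis. The 3 satellite bins stay near 1 (dotted line), with ranges of 1.103-fold, 1.07-fold and 1.052-fold, while the Sfi1 bin follows the dashed line of proportion to the library.

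Telomere-repeat bins lay somewhat higher in Tet iTKO than in Ctrl, and highest in Dnmt TKO. The mean relative depth of the 15 bins was 2.11 in pre-treatment Ctrl, 2.40 in acute Ctrl and 2.21, 2.43 and 2.37 in long-term Ctrl. It was 2.27, 2.61 and 2.53, 2.46 and 2.51 in the Tet iTKO libraries of the same order, and 2.80 in Dnmt TKO. The long-term groups did not overlap, at 2.34 ± 0.115 (SD, n = 3) in Ctrl and 2.50 ± 0.033 (SD, n = 3) in Tet iTKO, and the bins had been chosen on the former. In all 15 bins the long-term Tet iTKO mean was above that of Ctrl, by ratios of 1.009 to 1.116, but only 5 bins had all 3 Tet iTKO values above all 3 Ctrl values (5.75% of all autosomal bins did). Tet iTKO was already the higher one before treatment in 14 of the 15. Dnmt TKO was the highest of the 11 libraries in 11 of the 15 (14.6% of all autosomal bins).

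Telomere-repeat bins also followed the library only in part, since their deposited depth ranged a median of 1.34-fold over 10 libraries. Acute Ctrl and the first long-term Tet iTKO library had the same median depth, 0.2544, and means of 2.40 and 2.53. That pair also differed in stage. Pre-treatment Tet iTKO and the third long-term Tet iTKO library, of the same genotype, had median depths of 0.2353 and 0.233 and means of 2.27 and 2.51. The part of library depth in these differences was not tested.

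**Figure D3:**
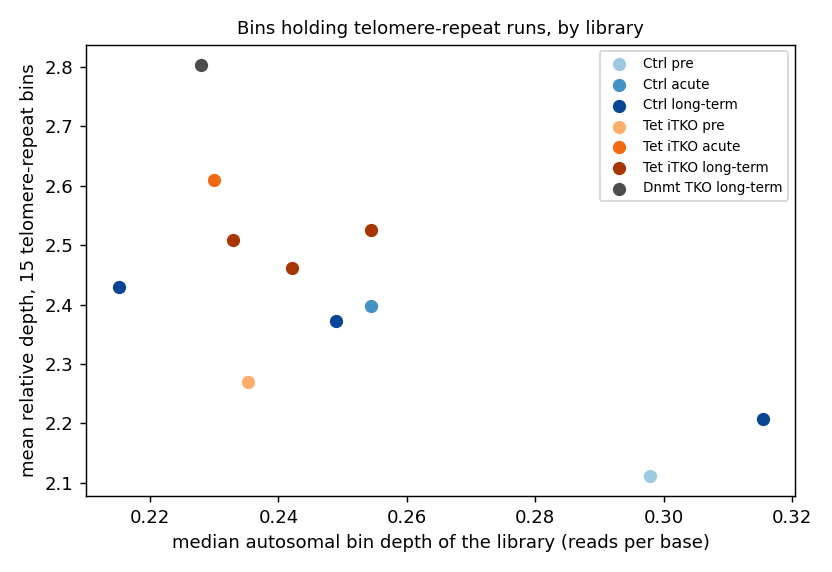
Points are the 11 libraries, with median autosomal depth on the x axis and the mean relative depth of the 15 telomere-repeat bins on the y axis. The 2 deepest libraries, both Ctrl, have the lowest means (2.11 and 2.21), and Dnmt TKO has the highest (2.80).

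The rDNA bin was lowest before treatment in both genotypes. This bin (chr17:39799031-39849020) had a relative depth of 11.3 before and 13.4 after acute treatment in Ctrl, and 9.76 before and 12.0 after it in Tet iTKO. The long-term libraries were close together, at 13.6, 13.7 and 13.0 in Ctrl and 13.98, 13.8 and 13.5 in Tet iTKO, with 10.6 in Dnmt TKO. Both pre-treatment libraries thus lay below all 8 other Ctrl and Tet iTKO libraries, and Dnmt TKO lay between them. The test of these stages is given below.

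Duplicated bins had the lowest median variation of the classes with more than 1 bin, but held both steady and variable bins. The bin holding Sfi1, a centrosomal protein gene, and the end of Drg1, a GTP-binding protein gene (chr11:3149993-3199984), had relative depths of 18.7 to 19.99 in the Ctrl and Tet iTKO libraries, 10 in all, with 16.7 in Dnmt TKO. Its coefficient of variation over 10 libraries was 1.87%, against 1.44% from read counting alone. The adjoining Sfi1 bin (chr11:3100001-3149992) ran from 7.59 to 8.32 over those 10 libraries and had 6.99 in Dnmt TKO. The bin that overlaps the start of Apba2, an adaptor protein gene, ran from 2.06 to 2.32 with a coefficient of variation of 4.13%, below the 4.31% of counting. The Sprr2a2 bin, described below, had the highest of this class, 12.83%. The mostly unique bin with Duxf3, a copy of the Dux factor that switches on genes of the early embryo, ran from 3.35 to 3.97 over all 11 libraries. Over all classes, 27 of 109 deep bins (24.8%) and 0.605% of all autosomal bins varied by more than 2 times their counting error, which is smaller in deeper bins. The median coefficient of variation was 5.14% for duplicated bins, 6.02% for mostly unique bins, 7.83% for telomere-repeat bins and 8.43% for satellite bins, against 6.24% for other bins.

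Other multicopy genes were sought by lists of gene families. Of 2648 listed genes on the bins considered, 47 overlapped a deep bin: 18 of 137 ribosomal and small RNA genes, all 10 satellite gene models, 3 of 29 genes in segmental duplications, 5 of 263 genes of early embryo and other clusters, and 11 of 2209 receptor and zinc finger genes. The small RNA genes were 17 Snord116 genes in 1 bin within Snhg14, the imprinted host transcript, and Rnu6. The cluster genes were Mup-ps16 and Mup5, of the major urinary proteins, Tcstv3, a gene of the early embryo, and H2-Q6 and H2-Q7, of the major histocompatibility complex. The Mup5 bin ran from 1.66 to 1.82 over 11 libraries. One deep bin, in the myosin gene Myo3a (chr2:22541733-22591752), matched the mitochondrial genome over 6.49% of its bases.

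Early Tet iTKO and early Ctrl libraries, none of which chose the bins, differed in deep bins around Ide and Btaf1, and all 3 called bins were higher in Tet iTKO. Ide encodes insulin-degrading enzyme and lies in a segment known to vary in copy number among C57BL/6J mice, and Btaf1 encodes a regulator of the TATA-binding protein. The Ide bin at chr19:37273645-37323660 had 1.22 and 1.27 in pre-treatment and acute Ctrl and 2.03 and 1.78 in Tet iTKO. The next Ide bin, chr19:37323661-37373677, had 1.15 and 1.14 against 1.61 and 1.76. The Btaf1 bin, chr19:36923530-36973545, had 1.31 and 1.27 against 1.89 and 1.80. The early Ctrl libraries stood apart in all 3 bins, since long-term Ctrl had 1.85 to 1.89, 1.55 to 1.75 and 1.87 to 1.99 there, and long-term Tet iTKO had 1.64 to 1.94, 1.61 to 1.73 and 1.86 to 1.87. Dnmt TKO was as low as early Ctrl, at 1.35, 1.14 and 1.36.

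The differences of early Tet iTKO minus early Ctrl were 0.60 ± 0.094 (SE, log2 scale) and 0.55 ± 0.089 for the Ide bins and 0.52 ± 0.087 for the Btaf1 bin, with limma's adjusted p-values of 0.000716, 0.00113 and 0.00198. These 3 of 109 deep bins compare with 0.0501% of all autosomal bins called with 0.0417% called higher and 0.00835% lower. The spread behind these SEs comes from the early libraries and the long-term Tet iTKO populations, and limma shares it across bins. The SEs and p-values therefore do not measure spread between independent Ctrl and Tet iTKO populations. The pre-treatment libraries of the genotypes, 1 each, already differed in the Ide and Btaf1 bins. None was called when a pre-treatment library was left out, and 1 when an acute library was. At an unadjusted p under 0.05, 22 deep bins (20.2%) and 5.0% of all bins passed, and the median difference was 0.04 in deep bins and 0.00 in all bins. Counting error is smaller in deeper bins, and such shares, here and below, were not set against bins of like depth.

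A limma fit with a variance trend and robust estimation called 17 deep bins in this comparison, 10 higher and 7 lower in Tet iTKO, where it called 0.106% of all bins, 0.0689% higher and 0.0376% lower. The higher ones were the 3 bins above, 5 of the satellite bins with flat deposited depth, the Tmem267 bin and a bin at chr17:3000001-3050220. Pre-treatment Ctrl had the highest median depth of the early libraries (0.2979 against 0.2299 to 0.2544), and its part in the satellite calls was not tested. Without the 6 bins of flat deposited depth, 12 deep bins were called.

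Lower ones in that fit included the Sprr2a2 bin, the Ly6c2 bin, the rDNA bin and bins of the Prl2c stretch. The Sprr2a2 bin (chr3:92222993-92273003), from a family of proteins of the skin barrier, had 2.89 and 2.94 in early Ctrl, 2.83, 2.87 and 2.95 in long-term Ctrl, 2.20 and 2.25 in early Tet iTKO and 2.26, 2.27 and 2.41 in long-term Tet iTKO. All 5 Tet iTKO libraries lay below all 5 Ctrl libraries at every stage, and Dnmt TKO was at 2.40. The early difference was -0.39 ± 0.088, with adjusted p = 0.122 in the plain limma fit and 6.35e-06 in the trend fit.

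The Tmem267 bin, which also holds the chemokine gene Ccl28 (chr13:119595506-119643913), went the other way. It had 6.99 and 7.06 in early Ctrl, 6.65, 6.88 and 6.98 in long-term Ctrl, 8.03 and 8.28 in early Tet iTKO, 8.24, 8.07 and 8.49 in long-term Tet iTKO, against 2.66 in the Dnmt TKO library. All 5 Tet iTKO libraries lay above all 5 Ctrl libraries. The early difference was 0.21 ± 0.088, with adjusted p = 0.98 in the plain limma fit and 0.000835 in the trend fit. Separation of 5 against 5 libraries, looked for after seeing the data, held in 4 deep bins, which also include chr17:3000001-3050220 (ratio 1.129) and chr13:12930041-12980012 (ratio 0.873), and in 1.02% of all autosomal bins.

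No deep bin passed the plain test between acute and pre-treatment libraries, and a single one, the rDNA bin, passed in the trend fit. Its acute minus pre-treatment difference was 0.26 ± 0.088 (log2), with adjusted p = 0.992 in the plain limma fit and 5.63e-07 in the trend fit, and it was positive in both genotypes. Each genotype had 1 library per early stage. SEs and p-values here and in the next comparison therefore do not measure spread between independently treated populations. Plain limma called 0 of 109 deep bins and 0% of all bins, with 19 deep bins (17.4%) and 4.7% of all bins at an unadjusted p under 0.05. The trend fit called 1 deep bin and 0.00417% of all bins.

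Long-term and early Tet iTKO libraries showed no deep bin called by plain limma, where 0.0313% of all bins were called. At an unadjusted p under 0.05, 10 deep bins (9.2%) and 5.5% of all bins passed. The trend fit called 3 deep bins, all higher in long-term cells, and 0.0501% of all bins, 0.0209% higher. These were the rDNA bin, with a difference of 0.33 ± 0.080 (adjusted p = 0.328 in the plain fit, 8.48e-13 in the trend fit), the Ly6c2 bin and a bin near the start of chromosome 18. The bin of Ly6c2, a surface antigen of monocytes (chr15:75072447-75122432), had 3.99 and 4.66 in early Tet iTKO and 5.10, 5.12 and 5.62 in long-term Tet iTKO. Its difference was 0.30 ± 0.082, with adjusted p = 0.627 in plain limma and 2.06e-06 in the trend fit. In Ctrl it had 4.79 and 5.30 early and 5.22, 5.94 and 5.38 in the long-term libraries, which overlapped.

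Between long-term populations of the Ctrl and Tet iTKO genotypes, the shares of deep bins apart were near those of all autosomal bins. With bins called apart when the groups did not overlap and their means differed by a ratio of at least 5 to 4, 0 of 109 deep bins were apart, against 0.148% of all autosomal bins. Ratios of Tet iTKO over Ctrl ran from 0.802 in the Sprr2a2 bin to 1.209 in the Tmem267 bin, with a median of 1.01. At a ratio of 1.1, 7 bins (6.42%) were apart, 4 higher and 3 lower in Tet iTKO, against 4.98% of all autosomal bins. Beside these 2, they were 3 telomere-repeat bins at 1.113 to 1.116, the second Sprr2a bin (chr3:92273004-92323014, 0.896) and a bin beside Chil4 (chr3:106226127-106276137, 0.902). Since long-term Ctrl chose the bins, these values are a description.

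**Figure D4:**
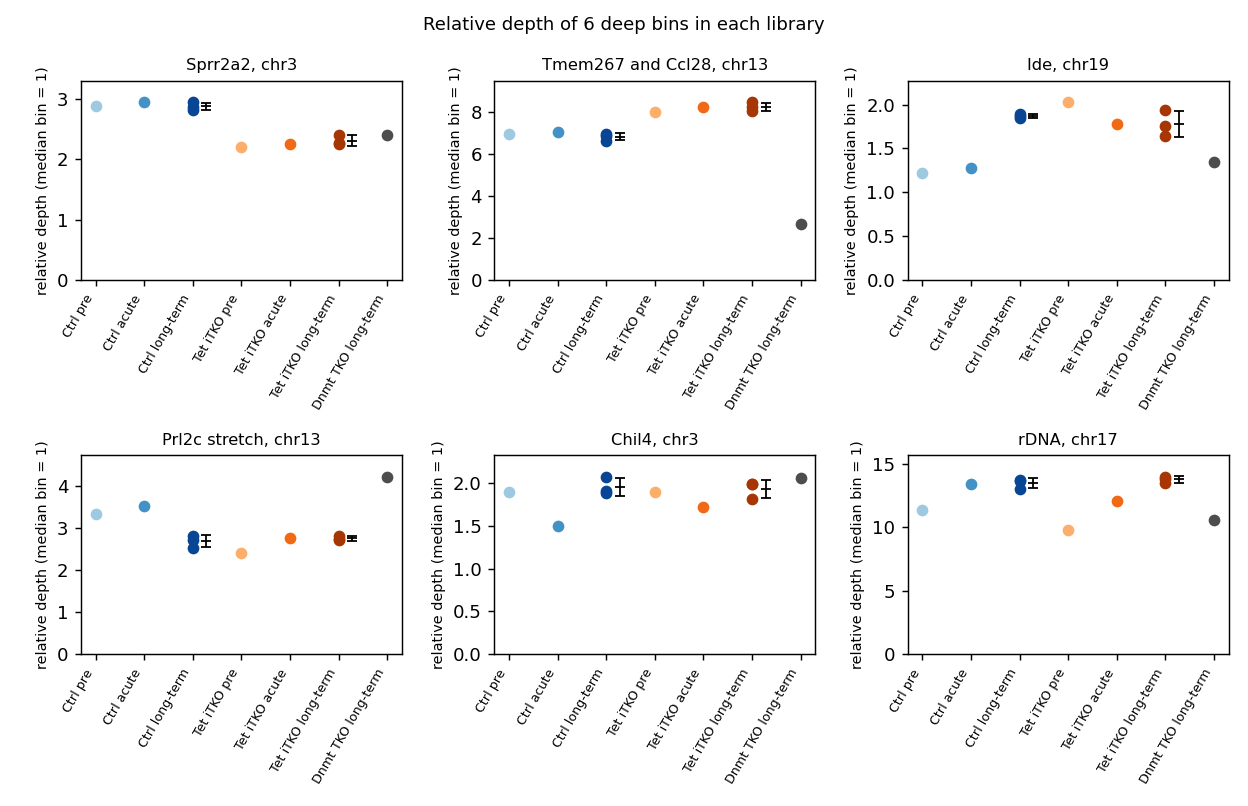
Each panel is 1 deep bin, each point 1 library by group on the x axis, with relative depth on the y axis from 0, and bars beside the long-term groups are mean ± SD of 3 libraries. The Sprr2a2 and Tmem267 bins separate Ctrl from Tet iTKO at every stage, the Ide and Prl2c bins separate early Ctrl from the other Ctrl and Tet iTKO libraries, and the Chil4 bin is lowest in acute Ctrl (1.498).

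Early and long-term Ctrl differed in the same Ide and Btaf1 bins and in the Prl2c stretch, which holds proliferin genes of the placental prolactin family. Apart were 5 deep bins, against 0.161% of all autosomal bins, 0.0459% higher and 0.115% lower. In early over long-term Ctrl, 3 were lower (Ide 0.667 and 0.693, Btaf1 0.673) and 2 higher. Long-term Ctrl chose the bins, which favours bins that are lower in early Ctrl, so these shares are a description. The 2 higher bins adjoin each other within chr13:12730153-13029984. The bin at chr13:12880069-12930040 had 3.33 and 3.53 in early Ctrl, 2.72, 2.80 and 2.54 in long-term Ctrl, 2.41 to 2.82 in the 5 Tet iTKO libraries and 4.22 in Dnmt TKO. The bin before it, chr13:12830097-12880068, had 3.14 and 3.34, then 2.68, 2.47 and 2.58, then 2.48 to 2.61, and 3.79 in Dnmt TKO. Early Ctrl thus lay between Dnmt TKO and the 8 other libraries in both. Without the acute Ctrl library 3 bins were apart, and without the pre-treatment one 8, 3 of them in a stretch of chitinase-like genes that was low in acute Ctrl alone.

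That stretch, chr3:106126105-106326148 with Chia1, Chil3 and Chil4, is a run of 4 deep bins. Acute Ctrl had 1.38, 1.498, 1.47 and 1.27 in these bins, below each of the 10 other libraries. As a single library it has no replicate.

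Dnmt TKO differed most from the rest, with the lowest ratios in bins that are mostly unique in the assembly. A bin was apart when the Dnmt TKO value lay outside the range of the 6 other long-term libraries at a ratio of at least 5 to 4, either way, to their mean. Apart were 35 of 109 deep bins, against 5.98% of all autosomal bins and 2.85% of those outside the regions left out. Lower were 25 deep bins in 18 stretches (22.9%), against 1.94% of all autosomal bins and 2.11% of those outside the regions left out. Higher were 10 in 5 stretches (9.2%), against 4.04% and 0.746%. With 1 library and long-term Ctrl among its comparators, there is no test and no replicate error. Since long-term Ctrl chose the bins, bins lower in Dnmt TKO could enter more readily than bins higher there. The shares and their direction therefore depend on that choice. Chosen in the mean of the groups of all 11 libraries, 36 deep bins were apart, 13 higher and 23 lower. The Dnmt TKO line was described in earlier work and has no parent here, so line of origin cannot be told apart from the knock-out.

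The lowest ratio, 0.143, was at chr10:3100001-3150021, which holds predicted genes. It had 6.01 to 6.56 over the Ctrl and Tet iTKO libraries, with 0.904 in Dnmt TKO. The Tmem267 bin followed at 0.352. The bin of Tmem125 and Cfap57, a gene of cilia (chr4:118526164-118576163), had 2.62 to 3.38 in the 10 libraries and 1.16 in Dnmt TKO, a ratio of 0.380. The Rab44 bin with the tandem unit shown above (chr17:29101315-29151303) had 1.69 to 1.89 and 0.803, a ratio of 0.438. The bin at chr9:124248837-124304982 had 3.03 to 3.39 and 1.57, a ratio of 0.492. In the first and the fourth of these 5, Dnmt TKO was below a typical autosomal bin.

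Other low bins lay on chromosome 17 between chr17:13156191 and chr17:13591612, a stretch with Smok2a and Smok2b, sperm motility kinase genes, and Tcp10c. The deepest deep bin there, in the noncoding gene 2700054A10Rik (chr17:13544003-13591612), had 7.78 to 8.73 in 10 libraries and 4.23 in Dnmt TKO, a ratio of 0.514. By class, 16 of the 25 lower bins were mostly unique, 8 duplicated and 1 rDNA (ratio 0.779). The nearest 3 other bins on each side had a median Dnmt TKO ratio between 0.8 and its inverse for 16 of the 25 and outside it for 9, among them the chromosome 17 stretch.

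Higher bins in Dnmt TKO were mainly duplicated gene clusters, 8 of the 10. All 6 bins of the Prl2c stretch were among them, at ratios up to 1.551. The others were the bins of Speer4a, from a family of testis genes (1.352), of H2-Q6 and H2-Q7 (1.269), a bin at chr12:20207674-20257696 (1.299) and a telomere-repeat bin at chr14:124752255-124802244 (1.272). That telomere-repeat bin had 3.53 to 4.47 in 10 libraries and 5.31 in Dnmt TKO. For all 10 higher bins the nearest other bins had a median ratio within those bounds. Satellite bins were not apart in Dnmt TKO, with 184 against 149 to 201 in the deepest. The median depth of the Dnmt TKO library was 0.228, and relative depth of satellite bins with flat deposited depth moves with that median. This comparison therefore cannot show whether those satellite bins differ.

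**Figure D5:**
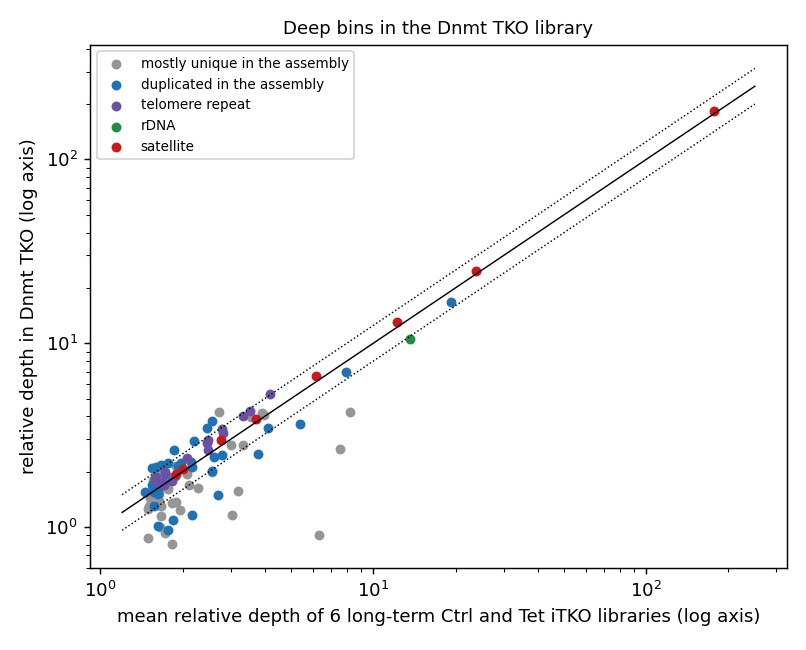
Each point is 1 deep bin, with the mean relative depth of the 6 long-term Ctrl and Tet iTKO libraries on the x axis and that of the Dnmt TKO library on the y axis, both log axes, coloured by class. The solid line marks equality and the dotted lines ratios of 5 to 4 either way, and 25 bins called apart lie below and 10 above.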

How the data were processed

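Low-coverage whole-genome libraries of mESC were grouped by their labels. By the study's methods, the authors trimmed single-end reads, kept those of at least 70 bases, mapped them with BWA-mem to mm10, then used Picard to take out optical duplicates. A mapping-quality filter is not given in the sources used here, and it decides how reads of repeats are counted. The deposited signal is the mean coverage of each bin of about 50 kb, neither scaled to the library nor corrected for GC. The deposited log2 column equals the log2 of that signal to within 4.05e-05. Base sums were multiples of 50 in 95.4% of 3432 shallow bins, so reads were counted as bases over 50. Each early library held 798 to 920 of these shallow bins and each long-term library 1. The count for long-term libraries therefore rests on 1 bin each. A read length of 50 bases conflicts with the minimum of 70 bases in the methods, and this was not resolved. Read counts and counting errors given here depend on that length.

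Relative depth was depth over the library's median autosomal bin. For the tests it was turned into log2(relative depth + 0.01), corrected for GC with lowess (span 0.3, 3 iterations) and fitted with limma 3.58.1 in R 4.3.3 on the 7 libraries that are neither long-term Ctrl nor Dnmt TKO, with 3 residual degrees of freedom, stage as a term for the early libraries, two-sided, and Benjamini-Hochberg adjustment over 47924 autosomal bins. A depth filter of 0.1 removed 0 bins. An adjusted p under 0.05 was a call. Comparisons with long-term Ctrl, which chose the bins, and with Dnmt TKO were described by overlap and ratio. The long-term groups were also fitted with limma, as an alternative, to try the replicate block. The fit was tested on simulated counts with counting noise alone, for early Tet iTKO minus early Ctrl over 47924 bins. It called 100% of bins changed by 0.6 (log2) either way, 65.4% at 0.4, 66.7% at -0.4 and 7 of 47724 unchanged bins. These shares do not carry over to bins that vary beyond counting noise.

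Lowess came from statsmodels 0.14.6, sequence matches from blastn 2.17.0 and figures from matplotlib 3.10.9, in Python 3.11.15 with scipy 1.17.1, pandas 2.3.3 and numpy 2.4.6. Features were read from the GRCm38 sequence and its GENCODE and RefSeq annotations, the latter for Rn18s-rs5. Satellite bins held at least 200 bases in all under local matches to the chromosome 9 unit of at least 50 bases and 80% identity, so that a whole unit can be less similar.

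The deep bins, gene lists and tests were chosen with earlier results of these data known. Sequence classes, the flat-depth group, neighbouring bins and the separation of 5 against 5 libraries were chosen after seeing the data. The rule named the 10 deepest stretches, up to 5 bins per direction called or apart in each comparison, the bins next to the threshold, and those with listed multicopy genes or mitochondrial sequence. Further bins, among them those of Sprr2a2, Ly6c2, Rab44, Apba2, Duxf3 and the chitinase-like genes, were named after their values were seen. Long-term replicates differed beyond counting noise (chi-square over degrees of freedom 1.02 to 1.15 for 6 pairs), and none were counted as 1. Alternatives covered normalisation, pseudocount, GC, filter, variance model, thresholds, choice of members, a replicate block and leaving out libraries. A sequence from a telomere-repeat bin is not reported here.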

Additional observations from a re-analysis of the deposited data

Results flagged for a closer look

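In 4 deep bins the Ctrl and Tet iTKO libraries moved in opposite directions between the early and the long-term stage, with every library of a genotype on the same side. These are 3.67% of the deep bins, against 2.08% of all autosomal bins, and the long-term Ctrl values had chosen the deep bins. The bins are few, and those of the Prl2c stretch adjoin, so nothing is read from the higher share. The difference between genotypes was not tested in any of them, and stage cannot be told apart from the cells sequenced. In the bin beside Chil4 (chr3:106226127-106276137) Ctrl had a long-term over early ratio of 1.155 and Tet iTKO one of 0.887. Ctrl there had 1.79 before and 1.47 after acute treatment, and 1.86 to 1.94 in the long-term libraries. In the same bin Tet iTKO over Ctrl was 1.174 early and 0.902 in the long-term libraries, a reversal without overlap seen in 0.917% of deep bins and 1.84% of all autosomal bins. The bin at chr10:3100001-3150021 had such ratios of 1.063 (Ctrl) and 0.953 (Tet iTKO). The Prl2c3 bin (chr13:12780125-12830096) had 0.885 and 1.079, and the next bin of that stretch (chr13:12830097-12880068) 0.797 and 1.021. In this last bin Tet iTKO had 2.48 in both early libraries and 2.49, 2.50 and 2.61 in the long-term libraries. Its counting error was 3.9%.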

How the results depend on the processing

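Most alternatives left these counts within 1.5 times their values. The variance trend with robust estimation gave 17 deep bins for early Tet iTKO against early Ctrl, 3 for long-term against early Tet iTKO and 1 for acute against pre-treatment. With the 6 bins of flat deposited depth also left out, a choice made after seeing the data, these were 12, 3 and 1. Deep bins chosen at a relative depth of 2 gave 0 for early Tet iTKO against early Ctrl, 2 for early against long-term Ctrl, 18 for Dnmt TKO and a long-term Ctrl share of 0.793%. Without the 5 deepest bins that share was 0.505%. A ratio of 1.1 gave 7 bins apart between the long-term groups, 12 between early and long-term Ctrl and 64 for Dnmt TKO, where 4.98%, 8.49% and 25.9% of all autosomal bins were apart. A ratio of 1.5 gave 0 between early and long-term Ctrl (0.0438% of all bins) and 17 for Dnmt TKO (1.99%). Choosing the bins in long-term Tet iTKO gave 1 between the long-term groups.

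Leaving out each library in turn gave 0 to 4 bins for early Tet iTKO against early Ctrl, with 0 when either pre-treatment library and 1 when either acute library was left out. It gave 0 for the other limma comparisons, 0 to 1 between the long-term groups (1 without long-term Ctrl 1 or long-term Tet iTKO 3), 3 to 8 between early and long-term Ctrl, and 35 to 36 for Dnmt TKO. The Ide and Btaf1 differences stayed positive, at 0.48 to 0.72. Leaving out an early library leaves 1 of that genotype, assumed to vary like the others. In the limma fit of genotype, leaving out either pre-treatment library left the acute libraries alone, 1 per genotype, to give the difference. Leaving out either acute library likewise left the pre-treatment libraries alone. The leave-outs of a stage are therefore the same check, with spread from the long-term Tet iTKO populations only.

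Replicate numbers did not pair the long-term libraries (correlations of 3 pairs 0.0002 to 0.0031). With the replicate block, limma called 1 deep bin, the Sprr2a2 bin, between the long-term groups, and 0 without the block. Over all bins these were 102 and 60. This fit uses the long-term Ctrl values that chose the bins, and nothing is read from its calls. Depth limits single bins to about 215 to 315 reads at a relative depth of 1, and read counting covers counting error only. No cause of these changes was tested. The Dnmt TKO result rests on 1 library.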
